A study of Mus musculus with 8 samples.

Results

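The 8 libraries of this series were islets of NOD/ShiLtJ mice, a strain prone to autoimmune diabetes, and they split into 2 sets that no label explains. The first set holds the libraries numbered 1 and 2 of each genotype label (WT1, WT2, KO1 and KO2), and the second those numbered 3 and 4 (WT3, WT4, KO3 and KO4), so 4 of the 8 libraries lie on each side and the genotype is balanced between them. The sets were chosen by the expression values of these same libraries, which split by number over all genes, with Fos, Fosb and Klf6 as markers of the second set. The size of the difference is therefore a description, and it is given without a test. WT stands for the label IRE1αfl/fl, mice with a floxed Ern1 gene, which encodes the endoplasmic reticulum stress sensor IRE1α. KO stands for the label IRE1αβ-/-. All mice were 7 weeks old, and per the labels all 8 received tamoxifen at 10 mg/ml by intraperitoneal injection, 2 times every 24 hours on 5 consecutive days, to switch on Cre. The labels do not name the promoter that drives Cre, and they record no date, batch, operator or sex. Per the labels, the pancreas was digested with collagenase and protease through the duct, and islets were enriched on Histopaque-1077 and hand-picked before RNA extraction.

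Immediate early genes need no new protein to be transcribed. Their RNAs appear within minutes of a signal such as calcium influx, cyclic AMP, growth factors or mechanical stress, and they are short-lived. Many encode transcription factors of the AP-1, EGR and NR4A families, and others encode phosphatases and RNA-binding proteins that switch the response off again. In islets they respond to glucose and incretins, and enzymatic dispersal of many tissues is known to induce them. The islet itself is more than endocrine cells: it holds capillaries, macrophages, stellate cells, Schwann cells and nerve endings of intrapancreatic ganglia, and a preparation can carry acinar, ductal and vascular smooth muscle cells.

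The promoters of 8 genes that carried the difference are shown so that short elements known to receive such signals can be read in them; 7 of the 8 hold at least 1. Each is the 250 bases before the RefSeq transcription start, on GRCm38.p6, written 5′ to 3′ on the strand of the gene. Capitals mark TGACG, the core of the cyclic AMP response element, on either strand. They also mark a match to the NF-kB motif, in Fos, Fosb, Npas4 and Il6, and TGANTCA, the AP-1 element, in Il6.
Fos, chr12:85473640-85473889, plus strand: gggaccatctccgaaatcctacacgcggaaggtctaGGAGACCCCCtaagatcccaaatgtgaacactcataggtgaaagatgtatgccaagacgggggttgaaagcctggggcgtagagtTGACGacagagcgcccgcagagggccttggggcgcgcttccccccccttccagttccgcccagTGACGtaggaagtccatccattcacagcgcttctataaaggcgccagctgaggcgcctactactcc
Fosb, chr7:19310046-19310295, minus strand: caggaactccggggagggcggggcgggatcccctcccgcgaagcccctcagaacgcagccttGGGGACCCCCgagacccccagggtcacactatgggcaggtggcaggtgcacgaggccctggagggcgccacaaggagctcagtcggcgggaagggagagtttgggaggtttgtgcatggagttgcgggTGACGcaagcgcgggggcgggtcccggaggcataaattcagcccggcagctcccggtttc
Klf6, chr13:5861239-5861488, plus strand: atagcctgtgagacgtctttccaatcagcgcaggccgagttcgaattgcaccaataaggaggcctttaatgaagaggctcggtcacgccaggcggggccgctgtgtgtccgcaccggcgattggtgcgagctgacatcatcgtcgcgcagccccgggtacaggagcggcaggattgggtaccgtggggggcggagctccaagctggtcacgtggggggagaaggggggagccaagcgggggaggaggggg
Atf3, chr1:191183334-191183583, minus strand: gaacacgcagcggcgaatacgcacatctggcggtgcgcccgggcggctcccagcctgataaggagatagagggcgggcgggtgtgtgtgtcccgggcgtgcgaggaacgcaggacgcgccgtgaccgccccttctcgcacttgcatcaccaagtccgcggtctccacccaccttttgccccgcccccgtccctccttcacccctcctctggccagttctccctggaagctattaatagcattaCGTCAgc
Nr4a1, chr15:101266596-101266845, plus strand: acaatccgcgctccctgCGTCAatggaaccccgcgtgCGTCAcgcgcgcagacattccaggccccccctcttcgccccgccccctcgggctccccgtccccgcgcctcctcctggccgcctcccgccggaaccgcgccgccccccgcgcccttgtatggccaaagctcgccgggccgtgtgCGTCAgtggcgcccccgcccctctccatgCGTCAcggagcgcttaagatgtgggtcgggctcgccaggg
Npas4, chr19:4989972-4990221, minus strand: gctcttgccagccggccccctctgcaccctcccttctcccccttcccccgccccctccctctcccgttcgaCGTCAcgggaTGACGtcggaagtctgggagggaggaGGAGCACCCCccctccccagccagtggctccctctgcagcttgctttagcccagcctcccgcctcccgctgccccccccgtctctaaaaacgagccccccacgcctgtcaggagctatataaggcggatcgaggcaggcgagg
Il6, chr5:30012864-30013113, plus strand: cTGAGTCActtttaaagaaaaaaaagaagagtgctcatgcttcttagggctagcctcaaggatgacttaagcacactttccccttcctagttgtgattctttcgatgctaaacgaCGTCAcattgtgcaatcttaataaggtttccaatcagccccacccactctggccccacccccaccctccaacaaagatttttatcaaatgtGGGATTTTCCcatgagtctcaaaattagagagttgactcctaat
Vip, chr10:5638968-5639217, plus strand: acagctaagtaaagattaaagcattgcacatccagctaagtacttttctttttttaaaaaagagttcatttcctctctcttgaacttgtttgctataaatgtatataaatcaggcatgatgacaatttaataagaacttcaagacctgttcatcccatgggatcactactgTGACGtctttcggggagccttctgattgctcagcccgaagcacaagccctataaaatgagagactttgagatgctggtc
Fos held TGACG 2 times, Fosb 1 time, Atf3 1 time, Nr4a1 4 times, Npas4 2 times, Il6 1 time and Vip 1 time, and Klf6 had no match in this window. The windows of Atf3, Nr4a1 and Npas4 lie inside the gene models of GENCODE M21, since the RefSeq start lies downstream of the start of the model.

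A gene was counted as separated where, within each genotype label, both libraries of one set lay above both of the other and the fitted difference was at least 1 on the log2(value + 1) scale. By this rule 610 of 14121 genes tested (4.32%) were higher in libraries 3 and 4, and 70 (0.496%) were lower. The median difference over all genes was -0.02; the authors' normalization holds it near 0, so a general offset could not be seen. The separated genes had a median difference of 1.74 on the higher side and of -1.28 on the lower side, and 46 genes were higher by at least 4. Just inside the limit lay Ppp1r18 (1.00) and Olfml2b (1.00), and Id4 (0.99) lay just outside it. A further 3042 genes kept the same order in both labels with a smaller difference.

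The 2 sets formed the main axis of the data. Over the 500 most variable genes PC1 held 53.6% of the variance and ran from -39.7 to -10.8 in libraries 1 and 2 and from 19.9 to 30.5 in libraries 3 and 4. PC2, with 28.3%, separated the genotype labels, and PC3, with 5.48%, parted WT1 and KO1 from WT2 and KO2. Gene by gene the picture was different: the set took a median of 14.9% of a gene's variance and the genotype label 29.5%. The share of the set was above that of the genotype in 5852 genes (41.4%).

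**Figure D1:**
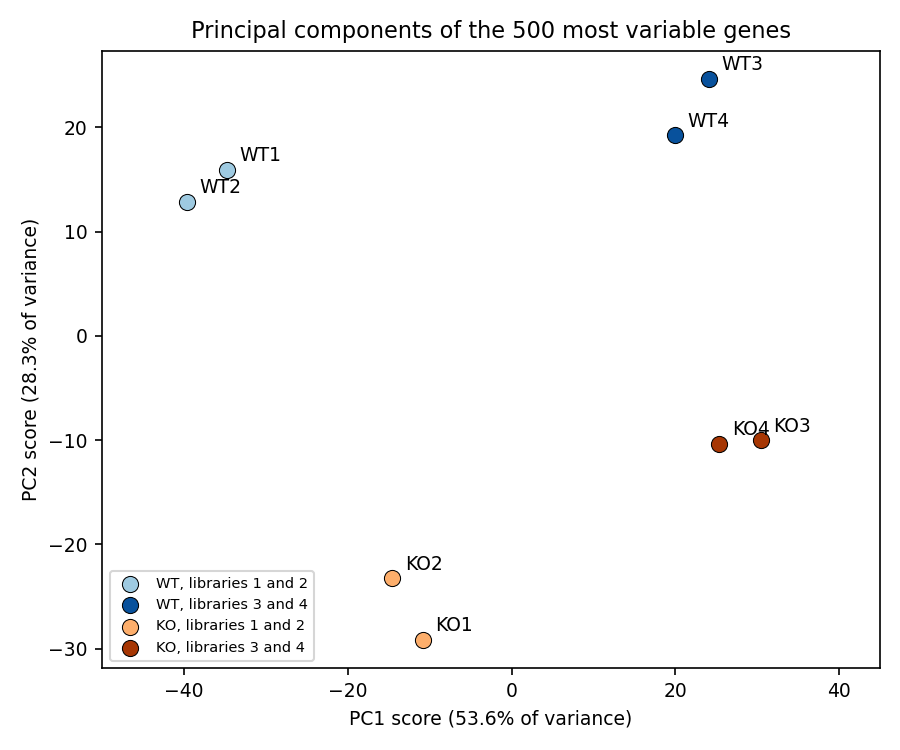
Scores of the 8 libraries on PC1 (horizontal, 53.6% of variance) and PC2 (vertical, 28.3%), from log2(value + 1) of the 500 most variable genes, with 1 point per library. Libraries 3 and 4 lie to the right of 19, libraries 1 and 2 to the left of -10, and the genotype labels part along PC2.

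The values summed to between 32024139 and 34858983 per library after the authors' normalization, so they give no sequencing depth, which is unknown here. The share of the mitochondrial ribosomal RNAs was 15.9% to 20.3% in libraries 1 and 2 and 13.2% to 18.5% in libraries 3 and 4. The sum of Ern1, the targeted gene, was 5549, 5164, 4622 and 4500 in WT1 to WT4 and 7223, 7390, 6922 and 7216 in KO1 to KO4. It was not lower in the libraries labelled KO. A total over the whole gene does not check the labels, because which exons are floxed is not stated in any source used here. Hormone genes stood where a preparation of islets has them: the smallest Ins2 value was 1438411 and the smallest Gcg value 374922.

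The AP-1 family gave the clearest picture. All 10 measured of 12 listed genes were separated higher, against 4.32% of all genes, with a median difference of 3.81. Fos, the partner of Jun in the AP-1 dimer (ENSMUSG00000021250, chromosome 12), read 4964, 2418, 7668 and 6046 in WT1, WT2, KO1 and KO2, and 73367, 99042, 33359 and 43120 in WT3, WT4, KO3 and KO4. The lowest library of the second set thus had over 4 times the highest of the first, and WT3 and WT4 stood above KO3 and KO4. The mean was 5274 ± 2205 in the first set and 62222 ± 29877 in the second (SD, n = 4 each), a log2 difference of 3.55 ± 0.41 (SE).

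Fosb, a close relative of Fos (ENSMUSG00000003545, chromosome 7), read 866, 377, 1085 and 996 in WT1, WT2, KO1 and KO2, against 39879, 37584, 16935 and 15351 in WT3, WT4, KO3 and KO4. Its log2 difference was 5.02 ± 0.40, and again the WT libraries of the second set were the highest. Atf3, a stress-induced member of the ATF family, went from 46, 31, 256 and 105 to 20348, 14259, 18716 and 17328 in the same order, with a difference of 7.77 ± 0.41. Here the second set was even across genotype labels, while in the first KO1 and KO2 were above WT1 and WT2. Junb, a Jun relative, read 299, 277, 1542 and 859, then 19165, 23279, 8288 and 4942. Its sets did not overlap, but the label mattered in both: KO libraries were the higher ones in the first set and the lower ones in the second. Jun itself had a difference of 3.32 and Maff, a small Maf protein, of 4.07. Fosl1, whose values are low, had 5.34, or 7.93 and 2.61 with 0.1 and 10 added in place of 1.

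Among 25 genes of the EGR, NR4A and KLF group 21 were separated higher, with a median difference of 3.24. Klf6, a zinc finger factor of wound and stress responses (ENSMUSG00000000078, chromosome 13), read 902, 910, 2085 and 1190 in WT1, WT2, KO1 and KO2 and 6280, 5661, 8560 and 7703 in WT3, WT4, KO3 and KO4. Its difference of 2.54 ± 0.16 was 2.72 within WT and 2.37 within KO, and that of Fos was 4.62 and 2.48; in neither gene did the gap between labels pass the interaction test described last. Nr4a1, an orphan nuclear receptor, went from 243, 95, 428 and 581 to 20719, 19633, 10892 and 10962. Npas4, a factor that answers to calcium influx, went from 72, 15, 189 and 294 to 7965, 7573, 3011 and 2322. In both genes the order was WT1 and WT2, then KO1 and KO2, then KO3 and KO4, with WT3 and WT4 on top. Egr1 (4.59) and Egr2 (5.73), zinc finger factors of the same response, were separated too. So were the low Egr3 (5.80, or 3.69 with 10 added) and Egr4 (6.48, or 9.18 and 3.50 with 0.1 and 10 added). Nr4a2 had 3.66, Ier2 3.41, Btg2 3.28 and Cyr61, a secreted matrix protein, 3.24. The 4 members that were not separated were Ier5 (0.57), Ctgf (0.98), Id3 (0.72) and Id1 (-0.64).

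The genes that end the response were higher as well. Of 26 feedback regulators 20 were separated higher, with a median of 1.89. Socs3, which blocks cytokine receptor signalling, had a difference of 4.66 ± 0.29, from a range of 302 to 664 in libraries 1 and 2 to 7209 to 17162 in libraries 3 and 4. Zfp36, which binds and destabilises cytokine mRNAs, had 4.63 ± 0.37, Tnfaip3, an inhibitor of NF-kB signalling, 3.91 ± 0.18, and Gadd45b, a stress sensor that acts on p38 signalling, 3.59. Sik1, a kinase that restrains CREB coactivators, had 3.29 and Dusp1, a phosphatase of MAP kinases, 2.89. The difference was above 0 in all 26. The 3 families together held 61 genes, of which 51 were separated higher.

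**Figure D2:**
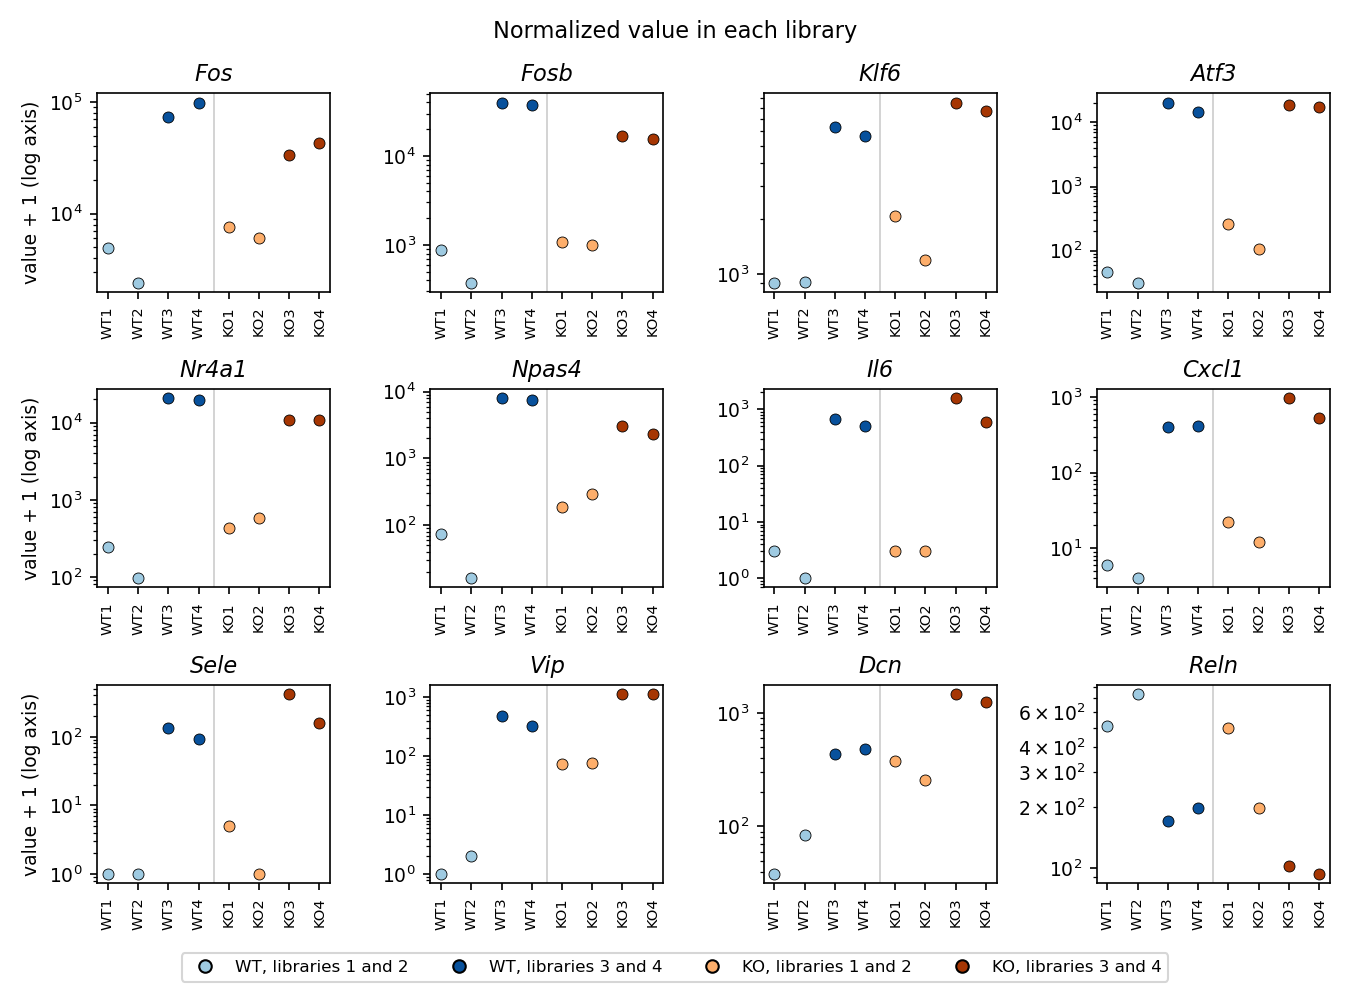
Value + 1 of 12 genes on a log axis, with 1 point per library and the genotype labels parted by a line. In the first 11 panels both libraries 3 and 4 of a label lie above its libraries 1 and 2, and in Reln they lie below them.

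The lists of cyclic AMP and CREB responsive genes (8 of 17 separated higher, median 0.91) and of YAP and SRF targets (5 of 19, median 0.48) moved less. Among the genes they share with the families above are Fosb, Nr4a1, Sik1, Srf and Cyr61. Irs2, an insulin receptor substrate that CREB induces in beta cells, read 668, 676, 1838 and 1604 in WT1, WT2, KO1 and KO2 and 8583, 8266, 5735 and 4961 in WT3, WT4, KO3 and KO4. The prohormone convertase Pcsk1 (-0.26) and the granule protein Scg2 (0.01), from the first of these lists, were not separated.

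Promoter windows were found for 46 of the 61 genes of the immediate early families and for 399 of the 610 separated higher genes. The TGACG core stood in 27 of 53 promoter windows (50.9%) of the immediate early families, and in 25.9% of the 13562 windows of all genes tested. Among the separated higher genes it stood in 154 of 499 windows (30.9%) and among the separated lower ones in 6 of 43. The full palindrome TGACGTCA, which holds the core on both strands, was present in 5.21% of the windows of the higher genes and 2.56% of all. The CArG box, the element of SRF, was found in 7 of the 53 windows (13.2%) and in 1.15% of all. The families share genes with the lists of CREB responsive genes and SRF targets above. Their shares of TGACG and the CArG box are thus not independent of how they were listed. TGANTCA was found in 8.22% of the windows of higher genes, in 4.51% of all and in 2 of the 53 immediate early windows (3.77%). Genes with several annotated starts count once per window, so windows of a gene overlap in part, and a match is a run of letters and no evidence of binding.

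Several chemokine and cytokine genes, Il6, Cxcl1 and Cxcl2 among them, were near 0 in the first set. The summed list was 1408 to 2622 there and 5853 to 8260 in the second set. Of 29 listed genes 18 were measured, 13 were separated higher and none lower, and the median difference was 4.10. Il6, a cytokine of acute inflammation, had the largest difference among all separated genes with a mean value of at least 50 (8.36 ± 0.41). It read 2, 0, 2 and 2 in WT1, WT2, KO1 and KO2 and 674, 497, 1571 and 597 in WT3, WT4, KO3 and KO4. Values this low make the log2 difference depend on the 1 that was added, but no library of one set came near the other. Cxcl1, a neutrophil attractant, read 5, 3, 21 and 11, then 397, 418, 960 and 529. Cxcl2 had 6.33, Tnf 5.52 and Ccl2, which attracts monocytes, 3.35. Cxcl9, induced by interferon gamma, was uneven, at 49, 1, 0 and 0 and then 380, 304, 14 and 218, so that KO3 lay below WT1, and its difference of 5.47 was 3.33 with 10 added. None of the 10 neutrophil markers listed was among the measured genes.

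Of 24 measured NF-kB targets 13 were separated higher (median 1.36). Sele and Selp, adhesion molecules of activated endothelium, had differences of 6.83 and 4.10, or 4.05 and 2.43 with 10 added. Sele read 0, 0, 4 and 0 in WT1, WT2, KO1 and KO2 and 135, 93, 417 and 157 in WT3, WT4, KO3 and KO4. KO3 was the highest library for Sele, Il6 and Cxcl1. Ptgs2, the inducible cyclooxygenase, had 4.68, Nfkbiz 3.35, Icam1 2.26 and Irf1 2.76. The NF-kB motif was found in 15 of 38 promoter windows (39.5%) of the chemokine, cytokine and NF-kB target genes and in 8.91% of all windows, though the targets were listed for being regulated by NF-kB. Of 34 interferon-stimulated genes 7 (20.6%) were separated higher, against 4.32% of all genes, with a median of 0.59, and Irf1 led them. Their summed value was 11331 to 13982 in the first set and 18336 to 27683 in the second.

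Stress pathways were separated in part. Of 32 genes of the integrated stress response 8 were separated higher (median 0.26), among them Ppp1r15a, the phosphatase subunit that restores translation (3.19 ± 0.21), and Ddit3 (1.97), while the amino acid and tRNA synthetase genes of the same list lay near 0, as Asns (0.31) and Wars (-0.10) did. None of 27 ER chaperones and XBP1 targets was separated (median -0.08). Over all genes 4.32% were separated higher and 0.496% lower, so few would be in a list this short. Their median was -0.28 within WT and 0.16 within KO, and Hspa5, the main ER chaperone, had -0.05 and 0.38. Of 17 heat shock genes only Dnajb1, a cochaperone, was separated (1.45), a share of 5.88%, near the 4.32% of all genes. Hspa1a was high in KO4 alone, at 1583 against 65 to 326 in the other 7 libraries. The metallothioneins Mt1 and Mt2, which bind zinc, had 2.62 and 2.78, and Hmox1, a haem oxygenase, had 1.39. With Osgin1 (1.19) they were the 4 separated of 16 genes in the NRF2 and metallothionein list. Hk2 was the only separated gene of 18 in hypoxia and glycolysis (5.56%), again near the share of all genes.

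Of 20 p53 targets 8 were separated higher (median 0.45), led by Btg2, which also counts as an immediate early gene. Of 11 glucocorticoid-responsive genes 6 were separated (median 1.36), with Sgk1, an ion transport kinase, at 1.78 and Klf9 at 1.67, and Per1 at 2.29. Fkbp5 and Tsc22d3, also targets of the glucocorticoid receptor, had 0.26 and -0.29. Of 19 clock genes 6 were separated, Nfil3 (2.29) and Nr1d1 (1.97) among them. The core genes Arntl (0.21), Clock (-0.20) and Dbp (0.06) were not.

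**Figure D3:**
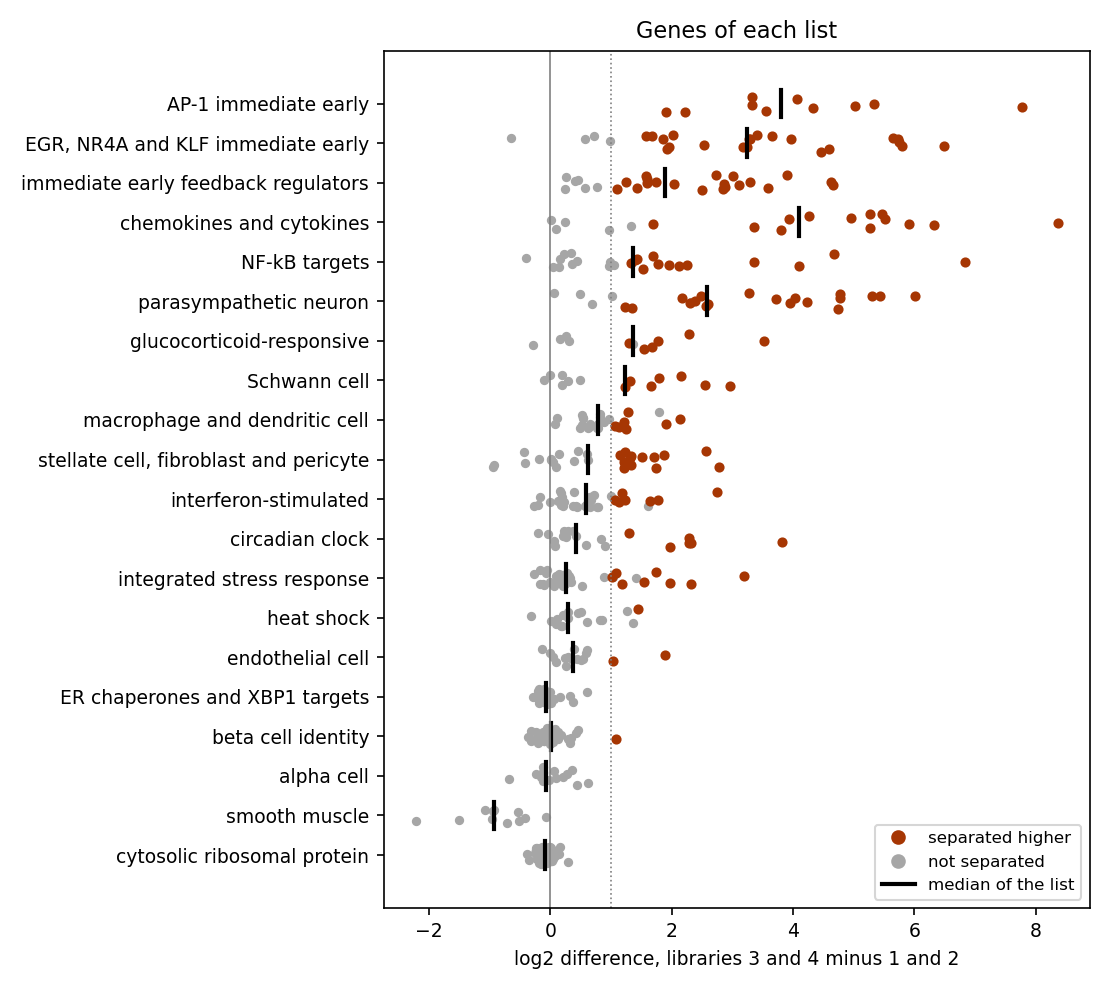
Fitted log2 difference of each measured gene (1 point, libraries 3 and 4 minus 1 and 2) in 20 gene lists, with the median as a black bar and separated higher genes in dark orange. The immediate early and cytokine lists lie far right of the dotted limit of 1, and the ER chaperone, beta cell and ribosomal lists lie near 0.

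Few genes of endocrine identity were separated, but only 4.32% of all genes were separated higher, so few would be in lists this short. Of 30 measured beta cell genes 1 was separated higher (Neurod1, a transcription factor of the endocrine lineage, 1.09 ± 0.19) and the median was 0.00. None of 16 alpha cell genes (median -0.07) and none of 10 delta, PP and epsilon cell genes (median 0.04) was separated. Ins2 had -0.06 within WT and -0.14 within KO. Gcg had 0.96 within WT and -0.09 within KO, and Sst 0.40 and -0.54, so the labels went different ways; neither passed the interaction test. None was separated either among 82 cytosolic ribosomal protein genes (median -0.09), 79 nuclear genes of oxidative phosphorylation (median -0.14), 15 mitochondrially encoded genes (median -0.15) and 21 cell cycle genes (median -0.34). The cell cycle median was -0.88 within WT and 0.28 within KO, and the summed list was 42823 and 43405 in WT1 and WT2, 29893 and 31543 in WT3 and WT4, and 32814 to 35959 in the libraries labelled KO. In cholesterol synthesis 2 of 19 were separated.

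Stromal genes were higher in part. Of 27 measured stellate cell, fibroblast and pericyte genes 13 were separated higher (median 0.63), and they were mainly matrix genes. Dcn, a proteoglycan of fibroblasts, read 37, 83, 376 and 255 in WT1, WT2, KO1 and KO2 and 431, 475, 1463 and 1255 in WT3, WT4, KO3 and KO4. The libraries labelled KO were above those labelled WT in each set. Col1a1, the main fibrillar collagen chain, had 1.88 ± 0.47, Lum 1.70 and Vim 1.15. The pericyte markers Rgs5 (0.01), Cspg4 (-0.19) and Pdgfrb (0.61) were not separated. In bulk RNA a change in the number of cells of a type and a change in RNA per cell cannot be told apart. The summed value of the whole list was 23004 to 34087 in libraries 1 and 2 and 27658 to 49442 in libraries 3 and 4, so the sums overlapped.

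Smooth muscle genes cut across the sets. This list of 11 genes was added after the values were seen, and none was separated. Acta2, the smooth muscle actin, read 107 in WT1, 2001 in WT2, 173 in WT3 and 274 in WT4, and 235, 3279, 472 and 531 in KO1 to KO4. Actg2, the enteric form, read 1, 1291, 12 and 2 in WT1 to WT4 and 0, 231, 14 and 15 in KO1 to KO4. Myh11, the smooth muscle myosin, read 403, 4853, 506 and 550, then 522, 3729, 743 and 913. In each of them the library numbered 2 stood far above the other 3 of its label, in WT and in KO alike.

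Some nerve genes were among the most strongly separated. Of 28 genes of parasympathetic and ganglion neurons, a list also added after the values were seen, 24 were measured and 19 were separated higher, with a median of 2.58. Because the list was drawn up with the values known, this count is no test against the 4.32% of all genes. Vip, a neuropeptide of pancreatic nerves, read 0, 1, 73 and 77 in WT1, WT2, KO1 and KO2 and 471, 324, 1130 and 1122 in WT3, WT4, KO3 and KO4. Libraries labelled KO were the higher ones in both sets, and WT1 and WT2 had almost none. Slc5a7, the choline transporter of cholinergic nerves, read 1, 0, 22 and 16, then 134, 92, 424 and 349. Nefl, a neurofilament, read 0, 0, 17 and 13, then 121, 81, 308 and 284; its difference was 5.43, or 3.53 with 10 added. Prph, the peripheral neurofilament, had 4.73 ± 0.32 and the same order of libraries. The summed list did not overlap between sets, at 1014 to 2073 and 2753 to 6808, which the choice of members may have fixed. Th, the enzyme of catecholamine synthesis, had 0.06 and was not separated.

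Glial genes were separated in part: 7 of 13 measured Schwann cell genes were higher (median 1.23), against 4.32% of all genes. The summed Schwann cell list was 8609 to 12169 in the first set and 9676 to 12257 in the second, so the sums overlapped. Gfap had 2.96 and Sox10, the glial lineage factor, 2.15, or 1.80 and 1.39 with 10 added. The myelin gene Mbp (0.19) was not separated. Of 16 endothelial genes 2 were separated, Vwf (1.89) and Robo4 (1.03), beside the adhesion molecules above, while Pecam1 had 0.53. Of 25 macrophage and dendritic cell genes 7 were separated (median 0.79). These were mostly antigen presentation genes such as H2-Aa (1.29) and the activation markers Cd86 (1.90) and Clec7a (2.14), while the complement genes C1qa (0.11) and C1qb (0.78) and the receptor Csf1r (0.65) were not. The summed macrophage list was 8111 to 13076 in the first set and 18380 to 22801 in the second. Of 5 measured red cell genes 2 were separated, with Hba-a1 at 1.54. Only 3 of 18 T and NK cell genes were measured, and Cd4 was separated (1.25). Of 9 measured B and plasma cell genes none was separated higher and Cr2 was lower. The adipocyte and mesothelium list had 2 of 12 genes measured and none separated.

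Acinar genes had a high median (1.38 over 29 genes), but none was separated. Pnlip, pancreatic lipase, read 13831, 3038, 60097 and 31104 in WT1 to WT4, and 32732, 86758, 109985 and 53307 in KO1 to KO4. WT3 and WT4 were thus above WT1 and WT2, whereas KO2 exceeded KO4. Cpa1, a carboxypeptidase, had 2.57 in WT and 0.59 in KO. None of 18 ductal genes was separated (median -0.08). Krt19, a duct keratin, was high in KO1 alone, at 1673 against 46 to 216 in the other 7 libraries. Whether exocrine, nerve or stromal content has a part in the immediate early difference was not tested.

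**Figure D4:**
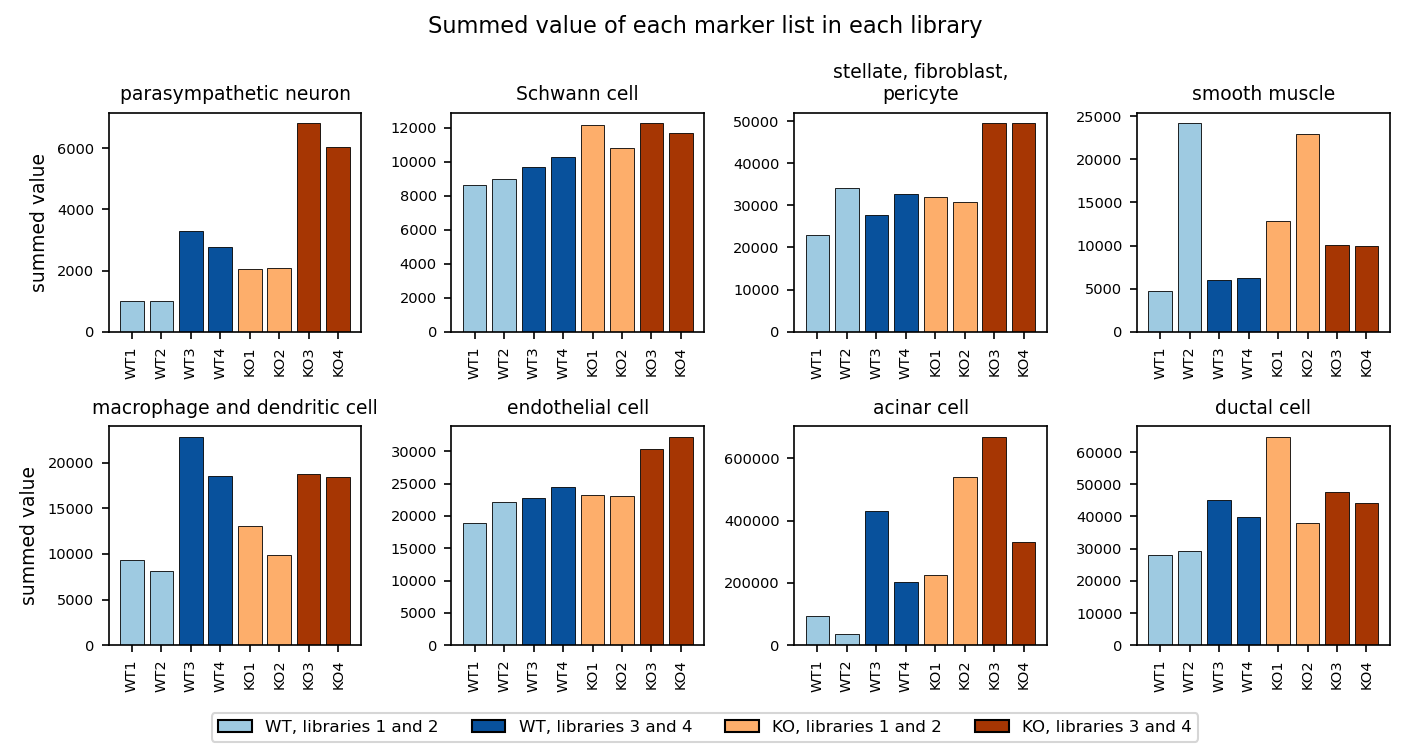
Summed normalized value of 8 marker lists, with 1 bar per library and axes from 0. The neuron and macrophage sums are higher in all libraries 3 and 4 than in any library 1 or 2, the smooth muscle sum is highest in WT2 and KO2, and the acinar sum does not follow the sets. The neuron and smooth muscle lists were added after the values were seen.

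Small non-coding RNAs were higher too. Of 48 annotated snRNA, snoRNA, scaRNA and miscellaneous small RNA genes 30 were separated higher and 0 lower. Over all genes the shares were 4.32% and 0.496%. Rny3 and Rny1, the Y RNAs, had 3.43 and 3.28, and Rny3 read 39, 41, 50 and 59 in WT1, WT2, KO1 and KO2 and 872, 758, 252 and 414 in WT3, WT4, KO3 and KO4. The difference was larger in WT than in KO in 40 of the 48. It was so too in 477 of the 610 separated higher genes and in 6833 of all 14121. The count is therefore not read as a trait of small RNAs. Of the 8 snRNA rows 4 carried identical values (Rnu2-10 and near-identical copies), so these 8 rows hold 5 measurements. Rn7sk, the most abundant of these RNAs, was not separated, since KO1 (357780) exceeded KO4 (286419). Neat1, a long nuclear RNA, had 1.54. With Rny1 and Rny3 it made 3 separated of 10 genes in the list of nuclear RNAs. Xist, the only measured gene of 5 in the list of X and Y linked sex genes, read 22764, 23514, 32270 and 30390 in the first set and 12097, 12658, 22881 and 16384 in the second (-0.80 ± 0.11). It kept the order within each label and stayed under the size limit.

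The 70 lower genes were fewer and smaller in effect. They had a median value of 52.4, against 165 for the higher ones, and 23 of them peaked in KO1. The rule for separation lets a lower gene peak only in a library numbered 1 or 2. With no share over all genes beside it, the count is not read as a trait of the lower genes. Reln, a secreted glycoprotein, was among the more abundant: it read 510, 735, 495 and 198 in WT1, WT2, KO1 and KO2 and 171, 197, 101 and 92 in WT3, WT4, KO3 and KO4. The KO2 value nearly met WT4. Gabrp, an epithelial GABA receptor subunit, had the most negative fitted difference among the named lower genes after Cr2 (-2.50 and -2.66), but its values of 11, 20, 1328 and 156, then 6, 8, 47 and 16, rest on KO1. Cr2, a complement receptor of B and follicular dendritic cells, read 152, 19, 37 and 48, then 13, 8, 6 and 3. Wfdc18 (-2.19), Fcgbp (-2.17), Pkhd1 (-1.29) and Klhdc7a (-1.73) were also highest in KO1. Plin4, a lipid droplet protein, had -1.96, Apob -1.52 and Mlph -1.38.

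The interaction of set and genotype label was tested, since the sets were drawn without it: it asks whether the set difference itself differed between the labels. It passed in 14 of 14121 genes (0.0991%; limma-trend, adjusted p under 0.05). The signed difference was larger in WT in 13 of them (0.0921% of all genes) and in KO in 1 (0.00708%). With the replicate number as a block 7 genes passed, 6 of them among the 14: Irs2, Jun, Gm5931, Junb, Txnip and Midn. Irs2 was first, with 3.65 in WT and 1.63 in KO (difference -2.01 ± 0.14 SE, adjusted p = 0.00285). Jun had 4.61 and 2.03 (adjusted p = 0.0180) and Junb 6.19 and 2.47 (adjusted p = 0.0180). For all 3 genes KO1 and KO2 lay above WT1 and WT2, and KO3 and KO4 below WT3 and WT4. Midn had 3.52 and 1.68. Vip had 8.11 and 3.89 (adjusted p = 0.0182, and 0.0501 with the block), with almost none of its RNA in WT1 and WT2. Nr4a2 had 4.62 and 2.70 and Ppp1r15a 3.78 and 2.59, and with the block their adjusted p was 0.0521 and 0.0851. Txnip, a glucose-induced inhibitor of thioredoxin, had 1.97 in WT and 0.02 in KO (adjusted p = 0.0182), for it read 7575, 6521, 26023 and 29133 in WT1 to WT4 and 35301, 31259, 28643 and 39640 in KO1 to KO4. Erf, Id2, Cbarp and Rasd1 were also larger in WT, and Sorcs2 had 0.42 in WT and -0.73 in KO; these 5 did not pass with the block. Gm5931, a processed pseudogene on the X chromosome, was the exception. It read 0 and 0 in KO1 and KO2, 58 and 124 in KO3 and KO4, and 81 to 102 in the libraries labelled WT. Its result depends on the 1 that was added: with 10 in its place 12 genes passed, all 12 larger in WT, and Gm5931 did not.

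Jun, Junb, Nr4a2 and Id2 were the 4 genes of the immediate early families that passed, and with the replicate block Jun and Junb did. In 57 of the 61 genes of these families the fitted difference was larger in WT, as it was in 477 of the 610 separated higher genes and in 6833 of all 14121. Lists outside these families went both ways. The difference was larger in WT in 28 of 29 acinar and 18 of 18 ductal genes. It was larger in WT in only 1 of 27 ER chaperones and XBP1 targets, 2 of 21 cell cycle genes and 4 of 16 endothelial genes. The mean of KO1 and KO2 was above that of WT1 and WT2 in 51 of the 61, and the mean of WT3 and WT4 above that of KO3 and KO4 in 38. No share over all genes is given for these counts, so they are not read as a trait of these families. Chemokines and cytokines had medians of 4.40 in WT and 3.73 in KO, and AP-1 genes 4.71 and 2.70. Only Irs2 passed whichever of the 8 libraries was left out. No gene passed in limma without the mean-variance trend, where 2349 genes had an unadjusted p under 0.05.

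**Figure D5:**
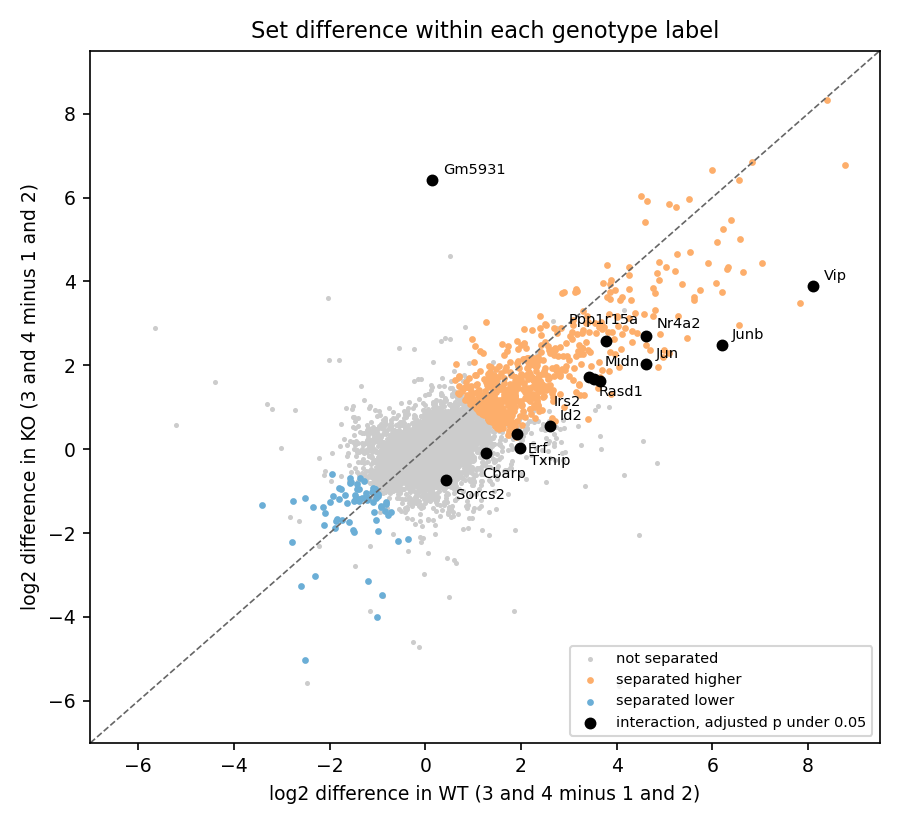
Log2 difference between libraries 3 and 4 and libraries 1 and 2 within WT (horizontal) and within KO (vertical) for 14121 genes, with 1 point per gene and a dashed line of equality. The 14 genes whose interaction passed are black; 13 of them, Vip, Junb and Jun among them, lie below the line, and Gm5931 lies above it.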

How the data were processed

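Islet RNA of 8 mice was sequenced as 1 library per mouse, 4 per genotype label. STAR 2.5.3a, RSEM 1.2.31, bcl2fastq 2.20 and edgeR 3.16.15 are named in the submitters' processing notes, without settings. The deposited table of 14126 genes gives 1 normalized value per library, a score that the authors rounded to whole numbers, and not raw counts. The authors' deposited log2 fold change, log2 CPM, likelihood ratio score, p-value and FDR for the genotype were not used. No count test was run, and depth is unknown, so precision rests on the spread between libraries.

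Differences were fitted with limma 3.58.1 in R 4.3.3 (limma-trend) on log2(value + 1), with genotype label and set as terms, for 14121 genes, those that reached 1 in 4 or more libraries. This scale understates the change of low genes. The interaction was adjusted by Benjamini-Hochberg over all genes tested. On simulated data for the interaction over 14121 genes, 82% of genes changed by 2 and 97% of those changed by 4 (log2) were called, and 4.28% of calls were unchanged genes. The simulation drew each gene independently, with no variation shared by the genes of a library. These rates therefore need not hold for the real libraries. The 2 sets, the members and the gene lists were chosen with earlier results of these data known. Genes named are Fos, Fosb and Klf6; the 12 largest differences in each direction among separated genes with a mean of at least 50, without predicted, RIKEN and pseudogene models; up to 5 separated genes per list, or the 2 most abundant; and the 10 smallest interaction p-values. Other genes named, to complete a list or show a pattern, were chosen after their values were seen. The 37 lists were described by counts and medians, and 2 lists (neuron and smooth muscle) were added after the values were seen. Gene models are from GENCODE M21 (GRCm38), promoters from RefSeq (10541 symbols matched); motifs were chosen with the promoters in view. Some genes are not reported here.

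The set is fixed by the replicate number, so a replicate block can be fitted for the interaction alone. Across 13080 genes with a mean value above 50, deviations of same-numbered libraries from their genotype mean correlated (r from 0.329 to 0.666 for the 4 numbers). These deviations hold the set difference itself, so passing the limit of 0.1 used here shows no pairing by number beyond the sets. Within a set r lay under that limit. It was 0.0173 between WT1 minus WT2 and KO1 minus KO2, and 0.0891 between WT3 minus WT4 and KO3 minus KO4. The set difference itself correlated at 0.655 between the labels. All are correlations across genes, not across replicates. With the replicate block 7 genes passed the interaction test, 6 of the 14.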

Additional observations from a re-analysis of the deposited data

Results flagged for a closer look

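In 202 groups of 4 libraries (101 genes, each label apart), 17 held a library far from the other 3 by Dixon's criterion. Its nominal rate of 1 group in 20 is no yardstick here. Many of these genes were named for a split between the sets, and others after their values were seen. Smooth muscle genes stood apart in the library numbered 2: Acta2 at 2001 in WT2 and 3279 in KO2, Actg2 at 1291 in WT2 and 231 in KO2, and Myh11 at 4853 in WT2 and 3729 in KO2. Epithelial genes stood apart in KO1, with Krt19 at 1673, Gabrp at 1328, Pkhd1 at 3164 and Klhdc7a at 319. KO4 was high for Cxcl9 (218) and Hspa1a (1583), KO2 for Plin4 (235), WT1 for Cr2 (152), WT2 for Ins2 (3357417) and WT4 for Sst (122607). WT3 was low for Wfdc18 (17).

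The set difference differed between the labels, by limma's interaction test, in 14 genes. On the log2 scale the difference in KO minus that in WT was -2.01 for Irs2, -2.57 for Jun, -3.72 for Junb, -4.22 for Vip, -1.92 for Nr4a2, -1.95 for Txnip and -1.84 for Midn. It was -1.57 for Erf, -1.15 for Sorcs2, -1.19 for Ppp1r15a, -2.05 for Id2, -1.37 for Cbarp and -1.70 for Rasd1, and 6.28 for Gm5931.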

How the results depend on the processing

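The separated genes were counted again under other settings. The higher count lay between 538 and 621 with pseudocounts of 10 and 0.1, no filter on low values or median-of-ratios scaling, was 472 among genes with a mean value of at least 50, and was 573 after scaling to totals without hormone and mitochondrial genes, which moved the median of all genes to -0.08. The lower count was 39 among genes with a mean of at least 50. With a size limit of 2 the counts were 234 higher and 9 lower. In the WT libraries alone 912 genes were higher and 211 lower, and in the KO libraries alone 598 and 207. Requiring no overlap over all 8 libraries left 486 and 55. Leaving out 1 library gave 579 to 711 higher and 81 to 98 lower. Of 1611 fitted differences of 101 genes under these settings, 240 moved by more than the spread within a label and set. None of the separated genes reversed, but the rule for separation allows no reversal in 1 label alone, with another pseudocount or with 1 library left out. The interaction count of 14 was less stable: it was 12 to 17 over pseudocounts, filters and scalings, 7 with the replicate block, 0 in limma without the trend (2349 genes at an unadjusted p under 0.05), and 1 to 146 when 1 library was left out. It was 88 without WT2, 146 without KO2, 20 without WT1, 17 without KO3, 7 without WT3, 7 without KO1, 3 without KO4 and 1 without WT4; the cause was not tested. With the replicate block 8 of the 14 no longer passed: Erf (adjusted p = 0.0501), Vip (0.0501), Nr4a2 (0.0521), Sorcs2 (0.0839), Ppp1r15a (0.0851), Id2 (0.0839), Cbarp (0.0839) and Rasd1 (0.0857). With 2 libraries per label and set, only their spread limits these comparisons.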
